A study of Mus musculus with 2 samples.

Results

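The cells described here are those rich in transcripts of 4 mast cell proteases and of S100a6 and Ahnak, in 2 single-cell libraries of mouse leukemia cells. They were chosen by value. Barcodes were kept when they had 500 or more detected genes and no more than 10% of UMIs from mitochondrial genes. UMIs are molecular barcodes that let each captured transcript be counted once. A kept cell was chosen when Mcpt1, Mcpt2, Mcpt4, Tpsab1, S100a6 and Ahnak together made up at least 1500 CPM of the cell, where CPM are counts scaled to a total of 1000000 UMIs, with at least 5 such UMIs. This gave 1952 of 13310 kept cells and 15085 barcodes. The oil-labelled library held 1169 of 6838 kept cells (17.1%, 95% interval 16.2 to 18.0) and the tamoxifen-labelled library 783 of 6472 (12.1%, 11.3 to 12.9).

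Mast cells store serine proteases in their granules together with histamine and release them when the IgE receptor is crosslinked. Chymases cut after aromatic residues and tryptases after basic residues, and in the mouse the chymases Mcpt1 and Mcpt2 are known from mucosal mast cells, whereas Mcpt4 and the tryptases are known from connective tissue mast cells. S100a6 is a small calcium-binding protein and Ahnak a very large scaffold protein beneath the plasma membrane, and neither belongs to the mast cell granule.

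Both libraries came from Lin- c-Kit+ GFP+ cells sorted from the spleen of recipient mice that had become sick after transplantation of AE9a leukemia cells, which carry a truncated AML1-ETO fusion, GFP, floxed Usp18 and UBCER-Cre, a Cre recombinase that is expressed in all cells and activated by tamoxifen. Mice received oil or tamoxifen, cells were sorted 3 days after the first injection, and 3 mice were pooled per library with 8000 cells targeted. The genotype label gives Usp18f/f for oil and Usp18delta/delta for tamoxifen, and the treatment label gives Usp18f/f leukemia cells for both. The authors describe a single-cell comparison of Usp18f/f with Usp18delta/delta leukemia cells, apart from that of Usp18+/f cells. The treatment protocol, however, gives Usp18+/f and a heterozygous depletion, so the libraries are named by injection only. With 1 library per group no test was possible and no p-value is given. Every difference is one between these pools, and the 95% intervals hold the error of counting alone. Recipient mice, leukemia cells and injection cannot be told apart.

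Usp18, the targeted gene, was at 6.45 CPM in the chosen cells of the oil-labelled library and at 16.6 CPM in those of the tamoxifen-labelled library, beside 5.53 and 15.3 CPM in the other cells. Its transcript was thus higher in the library labelled as deleted, by 1.36 on the log2 scale in the chosen cells (0.80 to 1.95). Which part of the gene is deleted is not given in the sources used here, and 3′ reads need not cover it. The libraries held 70239576 and 65028672 UMIs over all barcodes. They shared 14 barcodes, of which 1 was a chosen cell in both.

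The chymase genes lie together on chromosome 14, and the RefSeq table of start sites (GRCm38.p6) has an entry for Mcpt1, Mcpt4, Cma1, S100a6 and Ahnak. Mcpt2 (chr14:56042041-56044642) and Tpsab1 (chr17:25343245-25345562) are named only. The 250 bases upstream of the start are shown for both chymases of the rule that have an entry, for their neighbour Cma1, and for Cpa3, the mast cell carboxypeptidase, since the 4 genes behaved differently in the chosen cells. Capitals mark GATAA or its reverse complement TTATC, letters bound by GATA factors, searched on both strands with no overlap between matches.
Mcpt1, chr14:56017714-56017963, plus strand: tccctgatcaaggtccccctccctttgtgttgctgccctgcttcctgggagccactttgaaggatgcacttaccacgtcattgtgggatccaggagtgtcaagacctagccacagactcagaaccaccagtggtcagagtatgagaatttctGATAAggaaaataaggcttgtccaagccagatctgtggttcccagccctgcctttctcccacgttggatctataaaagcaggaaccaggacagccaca
Mcpt4, chr14:56062311-56062560, minus strand: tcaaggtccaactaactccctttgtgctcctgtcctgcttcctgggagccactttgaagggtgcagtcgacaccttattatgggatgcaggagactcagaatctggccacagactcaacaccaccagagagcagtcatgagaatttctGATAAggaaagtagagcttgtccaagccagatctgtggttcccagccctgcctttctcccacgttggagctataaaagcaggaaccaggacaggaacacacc
Cma1, chr14:55944676-55944925, minus strand: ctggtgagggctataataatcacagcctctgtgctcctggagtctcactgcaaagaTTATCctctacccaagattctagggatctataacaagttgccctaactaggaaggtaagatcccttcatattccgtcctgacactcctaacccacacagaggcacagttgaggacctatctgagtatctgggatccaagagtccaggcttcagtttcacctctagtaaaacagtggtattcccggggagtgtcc
Cpa3, chr3:20242182-20242431, minus strand: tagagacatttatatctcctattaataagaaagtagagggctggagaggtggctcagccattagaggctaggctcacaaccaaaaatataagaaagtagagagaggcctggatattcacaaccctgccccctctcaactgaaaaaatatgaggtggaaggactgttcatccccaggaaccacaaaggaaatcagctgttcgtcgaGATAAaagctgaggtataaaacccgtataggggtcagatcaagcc
The bases just after the start lay in an annotated coding transcript for Mcpt4, Cma1 and Cpa3, but not for Mcpt1, so the start used for Mcpt1 is less certain. The windows of Mcpt1 and Mcpt4 were 81.8% identical, with 211 identical positions in an alignment of 258. Mcpt1 and Cma1 were 52.7% identical, and Mcpt1 and Cpa3 47.8%. Each of the 4 windows held 1 match, those of S100a6 and Ahnak held 0, and 22.6% of all 32851 windows of this length held at least 1. Over the last 500 bases of their transcripts Mcpt1 and Mcpt2 were 65.9% identical and shared 0% of stretches of 50 bases. The same held for Mcpt1 and Mcpt4, which were 56.6% identical, and for Tpsab1 and its neighbour Tpsb2.

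The 6 genes that chose the cells are given first, as a description. Mcpt1 was at 2015 CPM (1981 to 2050) in the chosen cells of the oil-labelled library and at 1501 (1465 to 1538) in those of the tamoxifen-labelled library, against 21.7 and 17.1 CPM in the other cells. Mcpt2 was at 1273 and 1118 CPM, against 27.8 and 23.0. Mcpt4 was lower, at 255 and 241 CPM, and the tryptase Tpsab1 lowest of the 6, at 74.8 and 92.0 CPM. S100a6 was at 977 and 957 CPM and Ahnak at 908 and 817, against 61.9 and 47.5 CPM for Ahnak in the other cells. Mcpt1 and Mcpt2 together thus made up most of the protease UMIs in both libraries, and Ahnak was the gene with the most background in other cells. No chosen cell had to hold every gene: in the oil-labelled library, Ahnak had a UMI in 88.1% of chosen cells, S100a6 in 70.9%, Mcpt2 in 65.5%, Mcpt1 in 62.6%, Mcpt4 in 25.4% and Tpsab1 in 18.2%. In the tamoxifen-labelled library these shares were 84.9% for Ahnak, 64.8% for Mcpt2, 63.1% for S100a6, 59.8% for Mcpt1, 22.7% for Mcpt4 and 19.8% for Tpsab1.

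The rule cut a continuous range. No UMI of the 6 genes was seen in 3354 cells of the oil-labelled library and 3786 of the tamoxifen-labelled library, which was 59.2 and 66.5% of the cells not chosen. Cells lay on both sides of the threshold, with 310 and 255 cells between 1000 and 1500 CPM and 186 and 140 chosen cells between 1500 and 2000. The chosen cells nearest to the threshold stood at 1505 and 1501 CPM, and the nearest below it at 1495 and 1498.5. The median chosen cell was at 3560 CPM in the oil-labelled library and 3306 in the tamoxifen-labelled library, and the highest at 66517 and 50009. A further 53 and 26 cells passed the threshold with fewer than 5 UMIs and were not chosen. The UMIs of each cell were also split at random into 2 sets of about equal size. Cells chosen on the first set stood at 5910 and 4942 CPM there in the oil-labelled and tamoxifen-labelled libraries and at 5718 and 4633 CPM in the other set, which passed the threshold again in 82.8% and 78.3% of them.

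**Figure D1:**
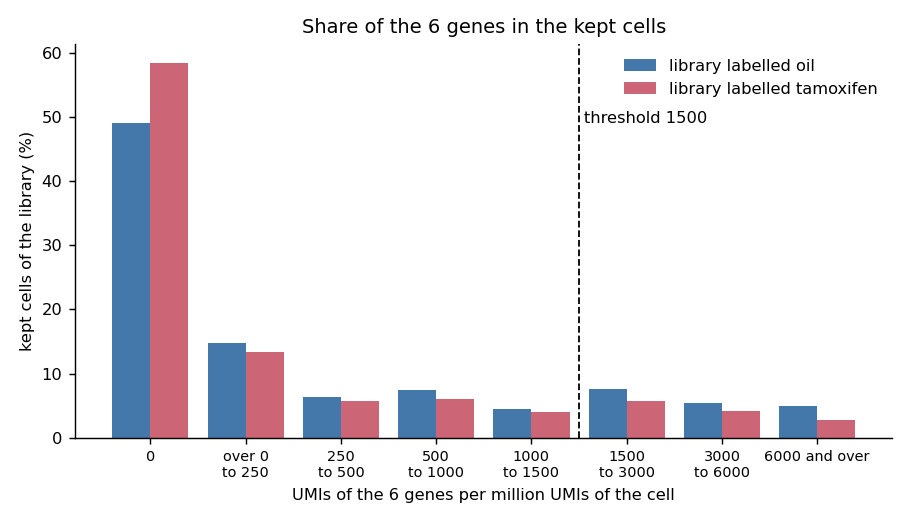
Percent of kept cells (vertical axis) of each library by the UMIs of the 6 genes as a share of the cell (horizontal axis, on a scale of CPM), with blue bars for the oil-labelled library and red bars for the tamoxifen-labelled library and a dashed line at 1500. The bins are of unequal width. The tallest bars are cells with no UMI of the 6 genes (3354 and 3786 cells), and there is no gap at the threshold.

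The label of mast cell proteases fitted the chosen cells only in part. The 4 proteases alone reached 1500 CPM in 315 chosen cells of the oil-labelled library (26.9%) and 242 of the tamoxifen-labelled library (30.9%), while S100a6 and Ahnak alone did so in 443 (37.9%) and 309 (39.5%). Each pair of sums reached it separately in 251 (21.5%) and 125 cells (16%), and only the full sum in 160 (13.7%) and 107 (13.7%). No protease UMI at all was present in 173 and 113 chosen cells. The chosen cells are therefore called by their genes below, and not by a cell type. Over all kept cells, with depth and phase not matched, each of these sums was higher where the other chose the cells. Where S100a6 and Ahnak alone chose them, the protease sum was 2935 CPM against 273 in the rest of the oil-labelled library (10.8-fold). In the tamoxifen-labelled library it was 1814 against 200.1 (9.07-fold). Where the proteases alone chose them, S100a6 and Ahnak stood 8.31 and 9.35-fold above the rest. Leaving each gene out of the rule in turn, that gene was still 32.9 and 31.9-fold higher in the cells so chosen for Mcpt1, 20.8 and 21.9-fold for Mcpt2, 15.7 and 18.4-fold for S100a6 and 6.73 and 7.75-fold for Ahnak. Within the chosen cells the correlation of log levels was -0.26 and -0.28 for Mcpt1 with Ahnak. It was -0.04 and -0.11 for Mcpt1 with S100a6, and 0.23 and 0.26 for Tpsab1 with Ahnak. All these values come from the genes of the rule itself, so they describe the cells and are no test.

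**Figure D2:**
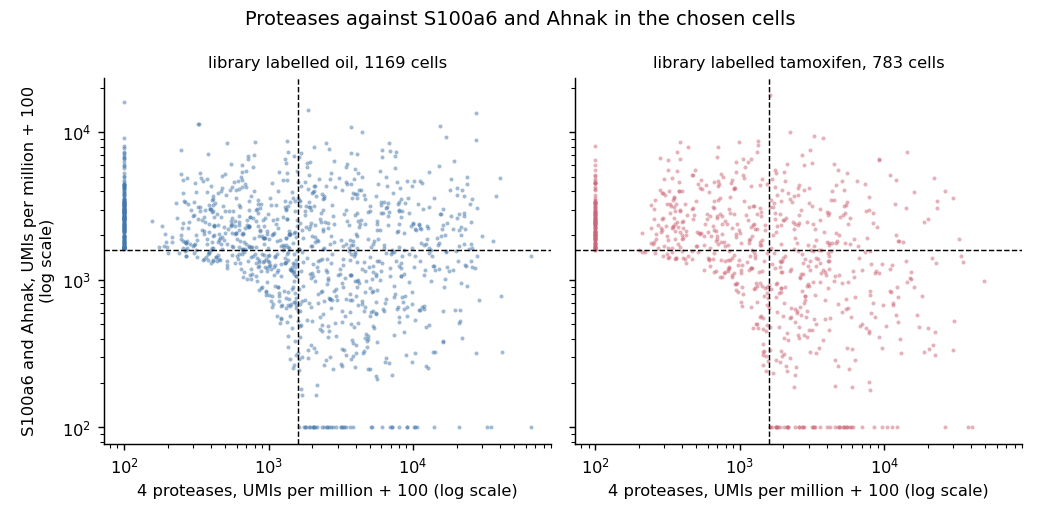
Each point is a chosen cell, with the sum of the 4 proteases (horizontal axis) and of S100a6 and Ahnak (vertical axis) in CPM plus 100 on log scales, and dashed lines where each sum alone meets the threshold of 1500. The column of points at the left edge has no protease UMI (173 cells in the oil-labelled library and 113 in the tamoxifen-labelled library).

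Within the chosen cells the 2 ends differed in other genes too, and these were named by a rule added after the values were seen (the 12 highest and 12 lowest genes outside the rule by the smaller of both ratios). Cells that passed by proteases alone were higher in the peptide hormone genes Ppy and Tac2: Ppy was at 54.9 against 6.37 CPM in the oil-labelled library and at 114 against 15.5 in the tamoxifen-labelled library, and Tac2 at 70.7 against 12.7 and 140 against 24.9. Of 21 erythroid genes measured, 4 and 5 were at least 2-fold higher in them and 0 lower. Examples are Rhd (56.9 against 15.9 CPM and 56.8 against 18.8) and Alas2, the first enzyme of heme synthesis in red cells (50.5 against 15.0 and 96.2 against 36.3). Cells that passed by S100a6 and Ahnak alone were higher in L1cam, a cell adhesion molecule (46.8 against 6.87 and 41.7 against 9.35 CPM), Tyrobp, a signalling adaptor of immune receptors (40.0 against 8.34 and 41.0 against 5.34), and Cd44, the hyaluronan receptor (82.3 against 25.5 and 52.5 against 18.7). Of all genes tested, 0.884% and 0.787% were at least 2-fold higher in the protease cells of the oil-labelled and tamoxifen-labelled libraries, and 2.48% and 1.90% at least 2-fold lower. Kit was lower in the protease cells (224 against 529 CPM and 315 against 632), as was the chymase Cma1 (2021 against 3442 and 1793 against 3489), although Cma1 is a protease of the same cluster as Mcpt1. Of 17 immediate early genes measured, 10 and 6 were at least 2-fold lower in the protease cells and 0 higher, among them Klf2 at 252 against 754 and 266 against 654 CPM. The protease cells were also deeper, with medians of 5597 against 4413 UMIs in the oil-labelled library and 5350.5 against 4365 in the tamoxifen-labelled library. After thinning to 3000 UMIs, 77.3% against 87.9% and 88.2% against 91.0% were called G1. Of measured S phase genes, 9 of 33 and 0 of 22 were at least 2-fold higher in them and 0 lower. The part of depth and phase in these differences was not tested.

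The chosen cells held fewer UMIs than the rest. Their median was 4803 in the oil-labelled library and 4680 in the tamoxifen-labelled library, against 9852 and 8796 in other cells, and the middle 50% of chosen cells ran from 3575 to 6588 and from 3589 to 6356. Ribosomal protein genes gave 15.9 and 17.8% of their UMIs, against 25.4 and 28.9%, while the mitochondrial share was alike (medians of 6.92 and 6.45%, against 6.80 and 6.87%). The comparisons of the main gene lists with other cells are therefore given also within cells of 3500 to 6500 UMIs, where medians were 4682.5 and 4638.5 UMIs in chosen cells (592 and 418 cells) and 4910 and 5034 in other cells (1039 and 1395). Fewer transcripts per cell and a different make-up of the captured RNA cannot be told apart, and the part that depth played was not tested.

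Relative to other cells, annexins, S100 proteins and genes of the membrane cytoskeleton were widely higher in the chosen cells. Over all genes with at least 20 CPM in either arm, 10.6% (689 of 6496) were at least 2-fold higher in the chosen cells of the oil-labelled library and 5.91% (384) at least 2-fold lower, and 9.16% (585 of 6388) and 4.79% (306) in the tamoxifen-labelled library. Among genes measured in both libraries, 8.21% were higher in both and 4.20% lower in both. A gene could reach the minimum of 20 CPM only in the arm where it was high, so these counts rest in part on the minimum. With 20 CPM required over all kept cells, 376 genes instead of 585 were at least 2-fold higher in the tamoxifen-labelled library. The other counts of chosen against other cells stayed within the limit used below for gene counts. The balance rests on the scaling: with TMM factors 368 genes were higher and 736 lower in the oil-labelled library and 275 and 669 in the tamoxifen-labelled library, and the median of all genes moved from 0.17 and 0.19 to -0.13 and -0.16. Of 37 annexin, S100 and cytoskeleton genes measured, 26 and 25 were at least 2-fold higher and 0 lower, with a median log2 ratio of 1.35 and 1.29 beside 0.17 and 0.19 over all genes. Since S100a6 and Ahnak chose the cells and every gene was measured in the same contrast, these counts describe the cells and are no test. Anxa2, an annexin that binds membrane phospholipid and S100a10, was at 524 against 43.2 CPM in the oil-labelled library and 354 against 23.9 in the tamoxifen-labelled library, log2 ratios of 3.60 (3.53 to 3.67) and 3.89 in the same order. Its partner S100a10 was at 1382 against 187 and 1313 against 160 CPM. Lgals3, a galactose-binding lectin, was at 1944 against 225 and 1812 against 199 CPM. Of the 37 measured genes of the list, 36 were above 0 in each library. The actin regulators Cfl1 (cofilin) and Pfn1 (profilin) were close to even, with log2 ratios of -0.16 and -0.20 for Cfl1 and 0.12 and 0.16 for Pfn1.

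At matched depth the differences were smaller, with 16 and 22 of 38 measured genes at least 2-fold higher and 0 lower, where 3.03% and 4.70% of all genes were higher in the oil-labelled and tamoxifen-labelled libraries and 1.58% and 0.908% lower. There the log2 ratio of Anxa2 was 2.44 and 2.66, that of S100a10 1.91 and 2.41, and that of Lgals3 1.82 and 2.12. These 3 genes were thus also higher than in other cells with as few UMIs.

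Outside that list, the genes highest in both libraries included Fxyd5, a regulator of the sodium pump and of cell adhesion (206 against 9.78 and 139 against 7.23 CPM), Capn2, the large subunit of a calcium-dependent protease (84.5 against 4.17 and 57.2 against 2.50), and Tppp3, a tubulin-binding protein (179 against 10.1 and 147 against 7.56). Klf2, a Krüppel-like transcription factor linked to quiescence, was at 518 against 28.6 and 473 against 25.6 CPM. Gsn, which severs actin filaments, was at 489.9 against 46.6 and 382 against 39.4 CPM. At matched depth the log2 ratios of these genes fell to between 1.59 (Gsn) and 2.79 (Tppp3) in the oil-labelled library and between 1.87 (Gsn) and 3.27 (Capn2) in the tamoxifen-labelled library.

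Other mast cell genes moved in several directions. Cma1, the chymase next to the rule's genes, was at 2901 against 257 CPM in the oil-labelled library and 2364 against 277 in the tamoxifen-labelled library, log2 ratios of 3.50 (3.47 to 3.53) and 3.09 (3.06 to 3.13), and it stayed higher at matched depth (1.54 and 1.43). A Cma1 UMI was seen in 75.8 and 73.2% of chosen cells and 22.1 and 23.0% of other cells after every cell was thinned to 3000 UMIs, and in 84.6 and 80.2% against 36.9 and 36.5% before thinning. The tryptase Tpsg1 was at 18.1 against 1.29 and 44.5 against 1.19 CPM. The tryptase Tpsb2 was near absent, with 13 UMIs in the chosen cells of the oil-labelled library and 0 in those of the tamoxifen-labelled library. Cpa3, which is stored with the proteases, did not reach 2-fold: it was at 439 against 342 CPM in the oil-labelled library and 281 against 324 in the tamoxifen-labelled library, log2 ratios of 0.36 and -0.20.

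Receptors and mediators of mast cells were mostly somewhat higher, with 8 and 6 of 17 measured genes at least 2-fold higher and 0 lower (median 0.88 and 0.76). Kit, the receptor that was used in the sort, was at 370 against 149 CPM and 447 against 215, Hdc, which makes histamine, at 1202 against 522 and 1202 against 699.8, and Ms4a2, the beta chain of the IgE receptor, at 1357 against 803 and 1296 against 763. At matched depth 3 of 18 and 3 of 19 were at least 2-fold higher and 0 and 1 lower, the median was 0.05 and -0.07 beside 0.07 and 0.13 over all genes, and Kit stood at 0.10 (-0.00 to 0.19) and -0.06 (-0.16 to 0.04). Cpa3 stood at -1.27 (-1.34 to -1.20) and -1.92 (-2.04 to -1.80) there, and Fcer1a, the alpha chain of the IgE receptor, went from 0.74 and 0.43 over all cells to -0.64 and -0.84. Cyp11a1, a steroid-making enzyme, was the list's highest gene and kept its direction (23.4 against 1.86 and 41.1 against 2.02 CPM, and 1.69 and 3.19 at matched depth).

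Of 12 transcription factors of mast cells, 4 and 4 were at least 2-fold higher and 0 lower (median 0.75 and 0.84). Mitf, which drives many mast cell genes, was at 42.7 against 10.7 CPM and 35.3 against 10.2, and at matched depth its log2 ratio was 0.98 and 1.21. Gata2 was at 466 against 268 and 438 against 240 CPM, whereas Gata1 differed little, at 110.1 against 89.0 and 110.0 against 95.3. At matched depth 0 and 3 of the 12 were at least 2-fold higher.

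Among cytokine receptors, 5 of 12 and 5 of 11 measured genes were at least 2-fold higher and 0 lower. The signalling chain Csf2rb serves the receptors of IL-3, GM-CSF and IL-5, and Csf2rb2 that of IL-3. They led with 1033 against 161 and 1072 against 190.2 CPM for Csf2rb2 and 1697 against 378 and 1790 against 433 CPM for Csf2rb. They kept log2 ratios of 1.39 and 1.53 (Csf2rb2) and 1.16 and 1.32 (Csf2rb) at matched depth. Immediate early genes, which respond within minutes to stimuli and to tissue handling, were at least 2-fold higher in 11 and 10 of 17, with 0 lower, and in 2 and 5 of 17 at matched depth. Fos was at 161 against 49.4 and 97.8 against 20.4 CPM. The part of cell handling was not tested.

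Many cell cycle genes were lower in the chosen cells over all kept cells. At matched depth the list medians were smaller in size, except that of G2M genes in the oil-labelled library. Of the S phase list, 27 of 40 and 22 of 37 measured genes were at least 2-fold lower and 0 higher (median -1.47 and -1.33), and of the G2M list 24 of 48 and 30 of 45 (median -0.98 and -1.15). At 3500 to 6500 UMIs 7 of 26 and 2 of 23 S phase genes were at least 2-fold lower (median -0.55 and -0.30). Of G2M genes it was 17 of 32 and 8 of 27 (median -1.10 and -0.59). Within cells called G1 it was 7 of 24 and 6 of 23 S phase genes and 4 of 20 and 3 of 20 G2M genes. The phases were called from these same lists, so the counts within G1 cells are no separate check. Tk1, the thymidine kinase of S phase, was at 14.9 against 64.6 CPM and 10.6 against 46.1, and Cenpm, a centromere protein, at 10.7 against 59.5 and 6.46 against 47.2. When each cell was thinned to 3000 UMIs, which left out 151 and 101 chosen and 357 and 244 other cells as too shallow, 83.9% (81.5 to 86.1) of chosen cells in the oil-labelled library were called G1 against 38.2% (36.9 to 39.6) of other cells. In the tamoxifen-labelled library it was 89.1% (86.6 to 91.4) against 56.5% (55.2 to 57.9). S phase was called in 3.93 and 2.20% of chosen cells, against 22.9 and 14.9% of other cells. At 3500 to 6500 UMIs the G1 share was 94.8 and 95.9% against 78.2 and 88.3%, so cells of this depth were mostly called G1 whether chosen or not.

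Within cells called G1, where 4.41% and 5.45% of all genes were at least 2-fold higher in the chosen cells and 1.25% and 0.928% lower, 19 and 21 of 37 genes of the cytoskeleton list were at least 2-fold higher, and 3 and 4 of 17 mast cell receptors and mediators. Of the 25 measured genes of the secretory pathway in the endoplasmic reticulum, 0 passed 2-fold over all kept cells, with a median of -0.46 and -0.47 and 4 genes above 0 in each library. Rpn2 of this list, a subunit of the oligosaccharyl transferase, was at 117 against 216 and 97.8 against 178 CPM. Of 26 measured granule and lysosome genes, 3 and 4 were at least 2-fold higher over all kept cells, with 24 and 25 above 0 and a median of 0.51 and 0.40. At matched depth 0 of 28 and 1 of 26 were at least 2-fold higher.

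**Figure D3:**
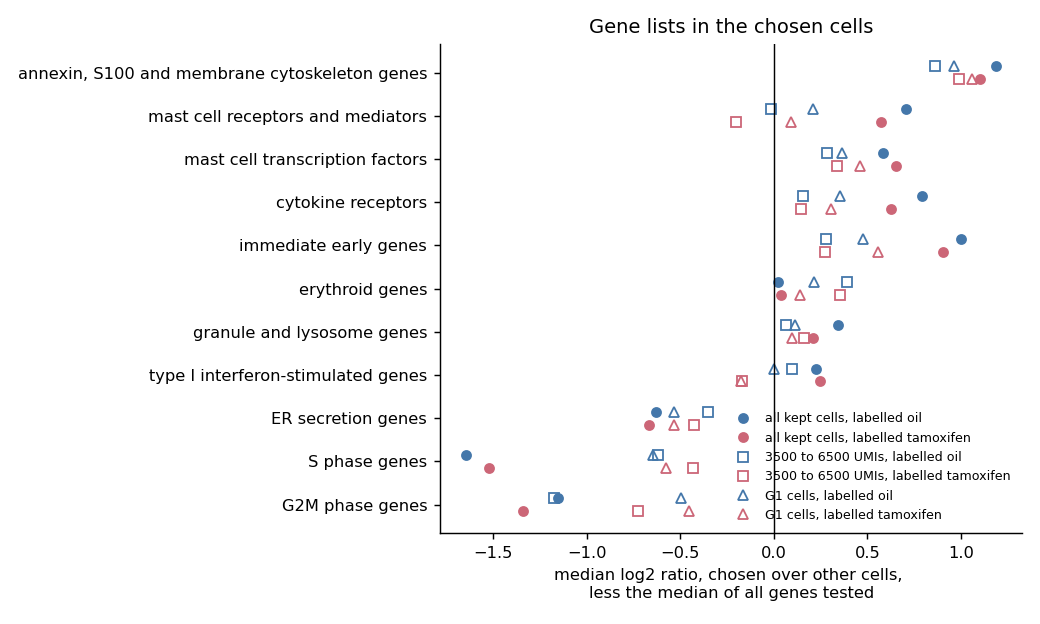
Median log2 ratio of each gene list (rows) in chosen over other cells, less the median of all genes tested, for all kept cells (filled circles), cells of 3500 to 6500 UMIs (squares) and cells called G1 (triangles), blue for the oil-labelled library and red for the tamoxifen-labelled library. The annexin, S100 and cytoskeleton list stays near 1 in all 6 values (0.86 to 1.19), while mast cell receptors and mediators move to -0.02 and -0.20 at matched depth.

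Erythroid transcripts were also higher in part of the list: 8 and 8 of 21 measured genes were at least 2-fold higher and 1 and 1 lower, with a median of 0.19 and 0.23 near that of all genes. At matched depth 7 of 20 and 8 of 20 were at least 2-fold higher and 0 lower. Hba-a1, an alpha globin, was at 7432 against 1599 CPM in the oil-labelled library and 11824 against 2604 in the tamoxifen-labelled library, and Alas2 at 43.5 against 6.52 and 68.3 against 10.8. Klf1, the erythroid Krüppel-like factor, was not raised (68.7 against 77.8 and 75.4 against 75.8). Per cell, Hba-a1 gave 41.4 UMIs in chosen and 16.8 in other cells of the oil-labelled library, and 65.5 and 25.8 in the tamoxifen-labelled library. How much of this is free RNA in the droplets was not tested.

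Markers of granulocytes, monocytes and lymphocytes were scarce. The 16 granulocyte genes summed to 22.1 and 21.5 CPM in chosen cells, against 7.61 and 8.10 in other cells, with Mpo, Elane, S100a8 and S100a9 at 0 UMIs in all chosen cells, which allows a level of up to 0.461 CPM in the oil-labelled library and 0.692 in the tamoxifen-labelled library. The 14 monocyte genes summed to 37.2 and 47.1 CPM, against 12.3 and 13.4. Ly6c2 was at 0 UMIs, and Csf1r and Lyz2 had 2 UMIs each in chosen cells of the oil-labelled library and 0 in those of the tamoxifen-labelled library. In the list, 0 genes reached 20 CPM in the oil-labelled library and 1 in the tamoxifen-labelled library, which was higher in chosen cells (log2 ratio 2.91, 2.55 to 3.26). At matched depth 1 of 1 and 1 of 2 measured genes were at least 2-fold higher. The 16 lymphocyte genes summed to 1.54 and 1.61 CPM, with Cd3e and Il7r at 0 UMIs in chosen cells. The basophil list, which shares genes such as Csf2rb, Ms4a2 and Gata2 with mast cells, summed to 4949 and 4968 CPM against 1692 and 1696, and 3 of its 5 measured genes were at least 2-fold higher in each library (median 2.17 and 2.05). Of its members, Mcpt8 was at 12.9 against 2.17 and 7.15 against 0.888 CPM and Prss34 had 3 and 2 UMIs in chosen cells, whereas Cd200r3, a receptor shared by basophils and mast cells, was at 377 against 77.0 and 360.3 against 65.6 CPM. The megakaryocyte list summed to 512 and 530 CPM, against 327 and 325, though among its markers Gp9 was at 0 and 0.231 CPM and Pf4 at 1.38 and 1.15 CPM.

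Levels changed in steps along the range of the 6-gene share rather than at the threshold. Lgals3 was at 81.1 CPM in cells without any of the 6 genes in the oil-labelled library, at 558 between 250 and 500 CPM, at 1186 between 1000 and 1500 and at 2240 from 6000 upwards. In the tamoxifen-labelled library the same steps were 84.0, 601, 1267 and 2023 CPM. Cma1 rose over the same bins from 87.7 through 582 and 1543 to 4204 CPM, and from 127 through 864 and 1984 to 2942. Kit rose from 121 CPM to 331 just below the threshold and lay between 357 and 377 above it in the oil-labelled library. In the tamoxifen-labelled library it rose from 194 CPM to 424 and lay between 412 and 466 above the threshold. Cpa3 rose and fell again: it was at 276 CPM without any of the genes, highest at 711 between 250 and 500 CPM, and at 299 from 6000 upwards, and at 292, 571 and 190.1 CPM in the tamoxifen-labelled library. Fcer1a was highest below the threshold too, at 493 CPM between 1000 and 1500 CPM in the oil-labelled library and 369 between 250 and 500 in the tamoxifen-labelled library, and fell to 357 and 242 from 6000 upwards. Tk1 fell from 66.6 to 7.98 and from 49.6 to 5.94 CPM. The median depth fell along the same range, from 10834.5 to 4326.5 and from 9458 to 4417 UMIs, and its part in these steps was not tested.

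**Figure D4:**
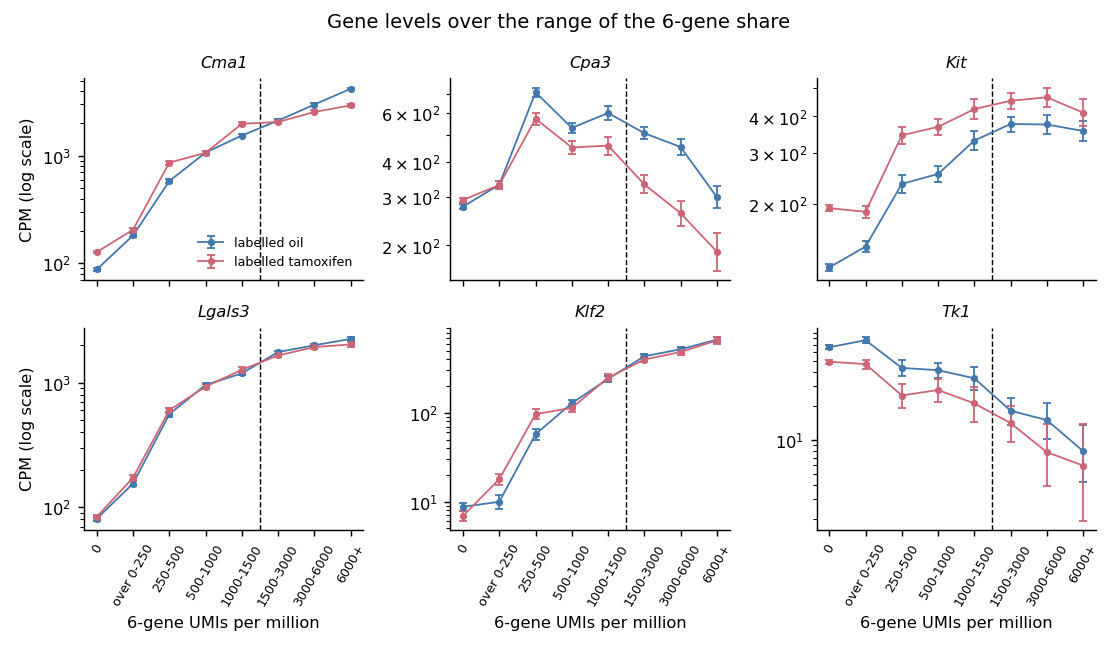
CPM on a log scale (vertical axis) of 6 genes over 8 bins of the 6-gene share (horizontal axis, CPM of the cell), with summed counts of each bin as points and 95% counting intervals as bars, blue for the oil-labelled library and red for the tamoxifen-labelled library, and the threshold dashed. Lgals3, Klf2 and Cma1 rise over the bins, Cpa3 is highest at 250 to 500 (711 and 571 CPM), and Tk1 falls.

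Between the libraries, chosen cells were less frequent in the tamoxifen-labelled library, with a log2 ratio of the shares of -0.50 (-0.63 to -0.37). Among cells of 1000 or more genes and up to 5% mitochondrial UMIs it was -0.14 (-0.45 to 0.18), with shares of 24.7% and 22.4% (166 and 173 chosen cells). Under the other filters and rules tried the ratio stayed within the interval of the main value. Among cells of 3500 to 6500 UMIs, 592 of 1631 in the oil-labelled library and 418 of 1813 in the tamoxifen-labelled library were chosen cells. Among cells called G1 it was 854 of 2885 and 608 of 3687. Few genes differed between the chosen cells of both libraries: 10 of 6253 (0.160%) were at least 2-fold higher with tamoxifen and 5 (0.0800%) at least 2-fold lower, beside 0.118% and 0.118% in other cells. The balance rests on the minimum level: with 20 CPM required over all kept cells 3 genes were higher and 14 lower, and with a minimum of 5 CPM 48 and 49. Each gene's ratio in other cells is given beside it. Of the rule's genes, Mcpt1 was lower by -0.42 (other cells -0.34), Mcpt2 by -0.19 (-0.27) and Ahnak by -0.15 (-0.38), S100a6 stood at -0.03 (-0.54) and Mcpt4 at -0.08 (0.12). Tpsab1 was at 0.30 (0.10 to 0.49), against -0.55 (-0.83 to -0.28) in other cells, where it was under 20 CPM in both libraries.

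Interferon-stimulated genes were the main group higher in the tamoxifen-labelled library, in chosen and other cells alike. Of 34 measured in chosen cells, 4 were at least 2-fold higher and 0 lower (median 0.37), and of 27 measured in other cells 5 and 0 (median 0.40). Isg15, the ubiquitin-like protein that Usp18 removes from its targets, was at 58.5 CPM in chosen cells of the oil-labelled library and 156 in those of the tamoxifen-labelled library, a log2 ratio of 1.41 (1.23 to 1.60) beside 1.24 in other cells. Oasl2 was at 9.68 and 36.5 CPM (1.91, beside 2.40), Irf7, a transcription factor of the interferon response, at 17.8 and 51.4 (1.53, beside 1.63), and Rtp4 at 8.76 and 23.3 (1.41, beside 2.34). For Rtp4 the difference between both ratios was -0.93 (-1.43 to -0.43). In chosen cells Oasl2, Irf7 and Rtp4 reached the minimum of 20 CPM only in the tamoxifen-labelled library. The count of higher genes in chosen cells thus rests in part on the library where they were high.

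Of the mast cell lists, 1 protease passed 2-fold (Tpsg1), with 0 of 17 receptors and mediators and 0 of 12 transcription factors. Pyy, a gut peptide hormone, was at 3.53 and 31.6 CPM, a log2 ratio of 3.16 (2.52 to 3.87) beside 2.92 in other cells. Ppy was at 25 and 55.6 CPM (1.15, beside 0.47), and Mir142hg, the host transcript of a blood cell microRNA, at 17.5 and 42.7 (1.29, beside 1.49). Tpsg1 was at 18.1 and 44.5 CPM, a ratio of 1.30 (0.96 to 1.64), while in other cells it was at 1.29 and 1.19 CPM with -0.12 (-0.62 to 0.37). The difference between those ratios was 1.42 (0.84 to 1.99). Under the stricter filter on genes and mitochondrial UMIs the ratio of Tpsg1 in chosen cells turned to -0.47. Cyp11a1 did not pass 2-fold, at 23.4 and 41.1 CPM (0.81, beside 0.12). Tpsg1 and Cyp11a1 were near absent from the other cells of both libraries. In chosen cells Pyy, Mir142hg and Tpsg1 reached 20 CPM only in the tamoxifen-labelled library.

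The 5 genes at least 2-fold lower in the chosen cells with tamoxifen were Uhrf1, Hist1h2ap, Cdkn3, Tacc3 and Nusap1, of which 1 is in the S phase list and 2 in the G2M list. Uhrf1, which maintains DNA methylation at replication, was at 25.3 and 10.1 CPM (-1.32, beside -0.63), Tacc3, a spindle protein, at 27.0 and 12.9 (-1.07, beside -0.28), and Nusap1, another spindle protein, at 49.8 and 24.4 (-1.03, beside -0.29). Uhrf1 and Tacc3 reached 20 CPM in chosen cells only in the oil-labelled library. The G2M list had a median of -0.51 in chosen and -0.37 in other cells, and the S phase list of -0.37 and -0.42. Among chosen cells of 3500 to 6500 UMIs Tacc3 stood at 0.02, 0 genes of either list were at least 2-fold lower, and the medians were -0.08 (S phase) and 0.006 (G2M). Cpa3 was at 439 and 281 CPM (-0.64, beside -0.08), and Fcer1a at 417 and 291 (-0.52, beside -0.21), while Ms4a2 was at -0.07 in both. Of 17 immediate early genes, 0 were at least 2-fold lower in chosen cells and 4 in other cells, with medians of -0.38 and -0.31 and Fosb at -0.80 beside -1.85.

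**Figure D5:**
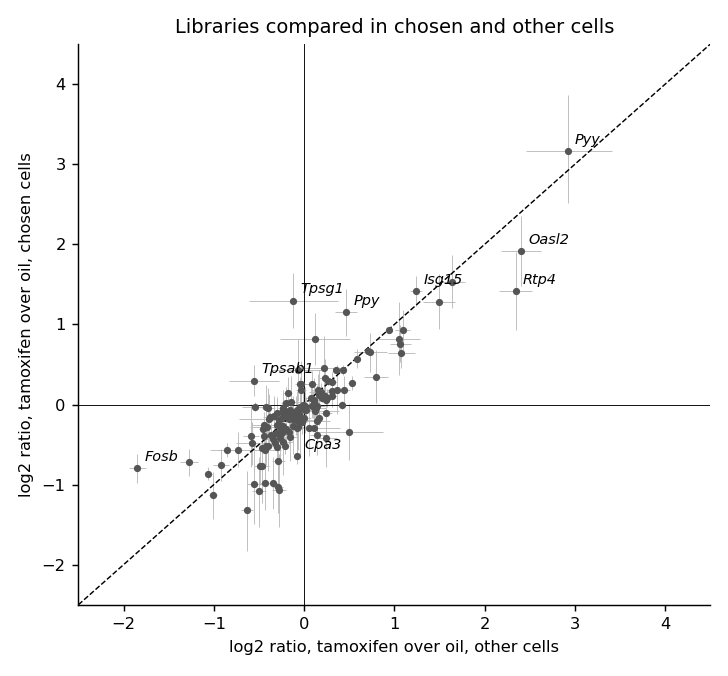
Log2 ratio of the tamoxifen-labelled library over the oil-labelled library in chosen cells (vertical axis) and in other cells (horizontal axis) for the 149 named genes measured in chosen cells, with 95% counting intervals and a dashed line of equal ratios. Isg15 lies near the line, and Tpsg1 (1.30 and -0.12) and Ppy lie above it.

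Barcodes that were not kept were checked by the same rule. Of 936 in the oil-labelled library, 163 (17.4%) met the 6-gene threshold, and of 839 in the tamoxifen-labelled library 81 (9.65%). Most of them, 157 and 78, had over 10% mitochondrial UMIs.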

How the data were processed

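The deposited files held, per the labels and the authors' methods, raw UMI counts per gene and cell from Chromium 3′ V3 libraries, made by the authors with Cell Ranger on mm10 (the matrix header names software 3.0.2). The filters, and the members and gene lists, were chosen with earlier results of these data known. Counts were summed over the cells of an arm (chosen or other) and a library and scaled to a total of 1000000 UMIs per arm (CPM). Log2 ratios carry conditional binomial intervals, CPM exact Poisson intervals and shares exact Clopper-Pearson intervals, at 95%, for counting error only. A gene was tested for a 2-fold change when it had at least 20 CPM in either arm. With 1 library per group, and 3 mice pooled in each, no p-value was computed and nothing says how far mice differ. Where a gene had 0 UMIs, 3 UMIs were taken as the limit.

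Genes were named by rule: the genes that chose the cells and selected mast cell genes, Usp18 and Isg15, the 12 highest and 12 lowest genes between chosen and other cells by the ratio nearer to 0, the 8 highest and 8 lowest between libraries, and the 3 highest and 3 lowest measured genes of each of 19 lists. Klf1, the basophil, megakaryocyte and other lineage markers, and the genes that differ between the ends of the chosen cells, fall outside it in part and were chosen after values were seen. Basophil genes, described above, had 3 of 5 measured genes at least 2-fold higher in chosen cells of both libraries, and megakaryocyte genes 1 of 3. Among lists whose counts are not given above, integrins had 1 of 5 and stem and progenitor genes 0 of 3 in both libraries. Interferon-stimulated genes had 3 of 27 and 5 of 34 higher in chosen than in other cells, and mast cell proteases outside the rule 1 of 2 and 2 of 3. Phases were called from 43 S and 54 G2M genes after thinning each cell to 3000 UMIs. Scrublet called 0.154% and 0.0821% of barcodes as doublets, too few to rely on, so none were removed. The 6% of barcodes with the highest scores held 4.45 and 5.49% of chosen cells and 7.16 and 6.61% of other cells.

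Alternatives changed the filters, the rule, the scaling (edgeR 4.0.16 TMM factors and DESeq2 1.42.0 size factors, used for scaling only), the level minimum and the cells compared. The restrictions to 3500 to 6500 UMIs, to G1 cells and to 20 CPM over all kept cells were chosen after seeing the data. Scripts ran in Python 3.11.15 with numpy 2.4.6, scipy 1.17.1, pandas 2.3.3 and scanpy 1.11.5, and in R 4.3.3, and were tested on simulated data. Promoter windows are from RefSeq, GRCm38.p6.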

Additional observations from a re-analysis of the deposited data

Results flagged for a closer look

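A gene is given here because its ratio had opposite signs in chosen and other cells, or in both libraries, with counting intervals on opposite sides of 0. With 1 library per group the difference was not tested. Between the tamoxifen-labelled library and the oil-labelled library, Car2 (carbonic anhydrase 2) had a log2 ratio of 0.26 in chosen cells and -0.04 in other cells. Alox5ap, which activates leukotriene synthesis, stood at -0.16 and 0.16, Cma1 at -0.30 and 0.11, Nfkbia, the inhibitor of NF-kappaB, at -0.38 and 0.15, and Lipa, a lysosomal lipase, at -0.41 and 0.24. Between chosen and other cells, Cpa3 had a log2 ratio of 0.36 in the oil-labelled library and -0.20 in the tamoxifen-labelled library.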

How the results depend on the processing

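No paired analysis was possible because the labels give the groups no shared replicate numbers and hold a single library each. Of 432 shares, gene counts and list medians under alternatives, 130 left their counting interval, or changed by over 1.5 times for a gene count, and 302 did not. They are given below, and the cause was not tested. Of 8880 values of single genes and other lists, 2432 left their interval and 6 changed sign from a value past 2-fold, and those 6 are given too. Some of the values could hardly move. Scaling largely cancels out of the list medians, which are taken less the median of all genes. A changed level minimum leaves the ratio of a single gene as it was. The tallies are therefore no measure of stability. As reported, the shares of chosen cells were 17.1% and 12.1%, genes past 2-fold numbered 689 higher and 384 lower (oil), 585 and 306 (tamoxifen) and 10 and 5 (tamoxifen over oil). List medians compare chosen with other cells, less the median of all genes. Among cells of 1000 or more genes and up to 5% mitochondrial UMIs, the share of chosen cells was 24.7% (oil) and 22.4% (tamoxifen). The log2 ratio of the shares was -0.14 (-0.45 to 0.18). Genes past 2-fold numbered 1072 higher and 689 lower (oil), 111 higher and 156 lower (tamoxifen over oil). List medians were mast cell receptors 0.99 (oil) and 0.53 (tamoxifen), the cytoskeleton list 1.24 (oil), immediate early genes 1.23 (oil), S phase genes -2.05 (oil), G2M genes -1.42 (oil) and -2.23 (tamoxifen). The sign turned for Ppy (chosen over other cells, tamoxifen) from 1.30 to -0.89 and Tpsg1 (tamoxifen over oil) from 1.30 to -0.47. With all barcodes, medians of lists were mast cell receptors 0.53 (tamoxifen). With up to 20% mitochondrial UMIs, the medians came to mast cell receptors 0.53 (tamoxifen). At a threshold of 1000 CPM, the share of chosen cells was 20.6% (oil) and 15% (tamoxifen). List values were G2M genes -0.90 (oil). At a threshold of 3000 CPM, the share of chosen cells was 10.2% (oil) and 6.78% (tamoxifen). Genes past 2-fold numbered 27 lower (tamoxifen over oil). The lists had medians of mast cell receptors 0.81 (oil) and 0.53 (tamoxifen), immediate early genes 0.81 (oil). With at least 10 UMIs of the 6 genes, the share of chosen cells was 14.2% (oil) and 9.66% (tamoxifen). List medians were the cytoskeleton list 1.22 (oil). With cells chosen by the 4 proteases, the share of chosen cells was 8.13% (oil) and 5.61% (tamoxifen). Genes past 2-fold numbered 34 lower (tamoxifen over oil). Medians of lists were the cytoskeleton list 1.13 (oil), immediate early genes 0.59 (oil), secretory genes -0.52 (tamoxifen). After thinning cells to 3000 UMIs, the share of chosen cells was 16% (oil). Genes past 2-fold numbered 16 higher and 16 lower (tamoxifen over oil). The medians came to mast cell receptors 0.57 (oil) and 0.37 (tamoxifen), the cytoskeleton list 1.05 (oil) and 1.03 (tamoxifen), immediate early genes 0.78 (oil) and 0.76 (tamoxifen). Without the 6% highest Scrublet scores, genes past 2-fold numbered 19 lower (tamoxifen over oil). List values were the cytoskeleton list 1.25 (oil), immediate early genes 1.08 (oil), G2M genes -1.66 (tamoxifen). At 3500 to 6500 UMIs, genes past 2-fold numbered 192 higher and 100 lower (oil), 295 higher and 57 lower (tamoxifen), 10 lower (tamoxifen over oil). The lists had medians of mast cell receptors -0.016 (oil) and -0.20 (tamoxifen), mast cell factors 0.28 (oil) and 0.33 (tamoxifen), the cytoskeleton list 0.86 (oil) and 0.99 (tamoxifen), immediate early genes 0.28 (oil) and 0.27 (tamoxifen), S phase genes -0.62 (oil) and -0.43 (tamoxifen), secretory genes -0.35 (oil) and -0.42 (tamoxifen), G2M genes -0.73 (tamoxifen). The sign turned for Kit (chosen over other cells, tamoxifen) from 1.06 to -0.057 and Tacc3 (tamoxifen over oil) from -1.07 to 0.018. Within G1 cells, genes past 2-fold numbered 275 higher and 78 lower (oil), 335 higher and 57 lower (tamoxifen), 1 lower (tamoxifen over oil). List medians were mast cell receptors 0.21 (oil) and 0.090 (tamoxifen), mast cell factors 0.37 (oil) and 0.46 (tamoxifen), the cytoskeleton list 0.96 (oil), immediate early genes 0.48 (oil) and 0.56 (tamoxifen), S phase genes -0.65 (oil) and -0.58 (tamoxifen), G2M genes -0.49 (oil) and -0.45 (tamoxifen), secretory genes -0.53 (tamoxifen). The sign turned for Hist1h1b (chosen over other cells, oil) from -2.20 to 0.16 and Plk1 (chosen over other cells, oil) from -1.14 to 0.30. With TMM factors, genes past 2-fold numbered 368 higher and 736 lower (oil), 275 higher and 669 lower (tamoxifen). With median ratio factors, genes past 2-fold numbered 419 higher and 648 lower (oil), 341 higher and 505 lower (tamoxifen). With totals free of mitochondrial and ribosomal protein genes, genes past 2-fold numbered 680 lower (oil), 380 higher and 630 lower (tamoxifen). With equal weight for every cell, genes past 2-fold numbered 2 lower (tamoxifen over oil). The lists had medians of mast cell receptors 0.59 (oil) and 0.29 (tamoxifen), the cytoskeleton list 1.03 (oil) and 0.97 (tamoxifen), immediate early genes 0.79 (oil) and 0.75 (tamoxifen). With a minimum of 5 CPM, genes past 2-fold numbered 500 lower (tamoxifen), 48 higher and 49 lower (tamoxifen over oil). List medians were the cytoskeleton list 1.22 (oil). With a minimum of 50 CPM, genes past 2-fold numbered 434 higher and 224 lower (oil), 358 higher and 162 lower (tamoxifen), 4 higher and 1 lower (tamoxifen over oil). Medians of lists were immediate early genes 1.06 (tamoxifen). With no minimum level, genes past 2-fold numbered 2860 higher and 3491 lower (oil), 2417 higher and 4045 lower (tamoxifen), 1258 higher and 1498 lower (tamoxifen over oil). The medians came to mast cell factors 0.67 (oil) and 0.82 (tamoxifen), the cytoskeleton list 1.27 (oil) and 1.41 (tamoxifen), immediate early genes 1.09 (oil), mast cell receptors 0.72 (tamoxifen), secretory genes -0.50 (tamoxifen). With a minimum of 20 CPM over all kept cells, genes past 2-fold numbered 376 higher (tamoxifen), 3 higher and 14 lower (tamoxifen over oil). List values were the cytoskeleton list 1.25 (oil). With phases called at 5000 UMIs, the G1 share of chosen cells was 72.7% (oil) and 82.3% (tamoxifen). Ratios of genes with few UMIs are limited by depth, as their intervals show.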
